A study of Mus musculus with 5 samples.

Results

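The 10 heat shock chaperone genes described here were followed through 5 single-cell libraries of sorted mouse lung group 2 innate lymphoid cells (ILC2s). They were *Hspa1a*, *Hspa1b*, *Hspa8*, *Hsp90aa1*, *Hsp90ab1*, *Hsph1*, *Hspe1*, *Hspd1*, *Dnajb1* and *Dnaja1*, taken by symbol, and all 10 were present among the 27726 genes common to the 5 count matrices. The mice were female wild-type C57BL/6 animals aged 4 to 8 weeks, and the cells of 5 mice were pooled for each library. The naïve library came from mice without tumour, and its non-activated cells were taken fresh. The other 4 libraries came from mice carrying subcutaneous TC1 tumours and were tumour-associated (ta): week 2 and week 3 ta-non-activated ILC2s were taken fresh, and week 2 and week 3 ta-activated ILC2s were cultured for 7 days with IL-2, IL-33 and TSLP at 10 ng/mL each. All cells had been sorted as Lin- ST2+ CD127+ Thy1.2+ CD45+, with antibodies to CD3, CD4, CD8α and TCRβ in the lineage panel. There was 1 library for each condition and week, so only the comparison of culture with fresh cells had more than 1 library a side.

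Chaperones hold unfolded or newly made proteins until they fold. The HSP70 proteins (inducible *Hspa1a* and *Hspa1b*, constitutive *Hspa8*) bind short exposed stretches of a client protein, J-domain proteins (*Dnajb1*, *Dnaja1*) deliver clients to them, and the HSP110 protein *Hsph1* exchanges their nucleotide. HSP90 (*Hsp90aa1*, *Hsp90ab1*) acts later on kinases and receptors, and *Hspd1* with its lid *Hspe1* forms the folding chamber of the mitochondrial matrix. The transcription factor HSF1 drives the inducible members after heat or other protein damage, and transcripts of *Hspa1a* and *Hspa1b* can also appear while tissue is being digested and cells are being sorted.

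After keeping barcodes with 200 or more genes and under 5% mitochondrial counts, 16530 of 18628 barcodes remained, between 1601 (week 3 ta-non-activated) and 6389 (naïve) per library, with median depths of 4396 to 16090 unique molecular identifiers (UMIs) per cell. Any pair of libraries shared 1 to 8 barcodes. The cells were sorted into 9 clusters built without the chaperone and early-response genes, and cluster names rest on marker genes and are rebuilt here, not taken from the study. The ILC2-like cluster held 10000 cells, with 3750 naïve cells, 1348 week 2 and 655 week 3 ta-non-activated cells, and 1738 week 2 and 2509 week 3 ta-activated cells. Both fresh tumour libraries stood apart. The week 3 ta-non-activated library held 658 early-thymocyte-like cells, led by *Myl10*, *Ly6d*, *Dntt* and *Arpp21*, against 10 and 2 in the naïve and week 2 ta-non-activated libraries. It also held 185 cycling cells with T cell markers (at least 3 of 10 marker genes seen). The same rule gave 23 naïve, 40 week 2 ta-non-activated, and 101 week 2 and 107 week 3 ta-activated cycling cells. *Dntt* was at 0 in those cells, against 840 CPM in the 185 cycling cells of week 3 ta-non-activated. In these 658 cells the T cell list summed to 11419 CPM (UMIs per 1000000) and the ILC2 list to 355 CPM, against 1453 and 6076 CPM in the ILC2-like cells beside them. *Cd4*, *Cd8a* and *Cd8b1* were at 0 in those ILC2-like cells, and the ILC2 marker *Ptgdr2* was at 0 in the ILC2-like cells of both fresh tumour libraries. The week 2 ta-non-activated library was low in most early-response genes, with 19 of 23 at least 2-fold lower and 2 (*Ier3* and *Socs3*) at least 2-fold higher than in naïve ILC2-like cells, where 35.8% of 6501 genes were lower and 24.8% higher. The transcription factor gene *Fos* stood at 0.552 CPM in its ILC2-like cells, against 1153 CPM in naïve and 1275 CPM in week 3 ta-non-activated ILC2-like cells, and both ta-activated libraries were low too, at 2.42 and 1.28 CPM. A level below is the gene's UMIs per 1000000 UMIs of the summed cells, and its 95% interval is an exact Poisson interval that covers counting error only, not the spread between mice.

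*Hspa1a* and *Hspa1b* lie beside each other on mouse chromosome 17, on the minus strand at chr17:34969190-34972156 and chr17:34956436-34959238 (GRCm38), and neither has an intron. Their promoters are shown because both genes moved in the same direction in every ratio between libraries below. They are RefSeq sequences on GRCm38.p6, printed 5′ to 3′ along the gene's strand and ending at the last base before the start site. Capitals mark the paired heat shock element unit, GAANNTTC or TTCNNGAA, searched on both strands (each is its own reverse complement, and neighbouring units overlap).

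*Hspa1a*, chr17:34972157-34972406: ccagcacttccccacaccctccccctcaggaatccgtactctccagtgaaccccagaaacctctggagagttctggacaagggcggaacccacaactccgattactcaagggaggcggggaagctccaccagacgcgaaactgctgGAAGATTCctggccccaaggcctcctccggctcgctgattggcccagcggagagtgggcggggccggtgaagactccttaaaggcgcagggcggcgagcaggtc

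*Hspa1b*, chr17:34959239-34959488: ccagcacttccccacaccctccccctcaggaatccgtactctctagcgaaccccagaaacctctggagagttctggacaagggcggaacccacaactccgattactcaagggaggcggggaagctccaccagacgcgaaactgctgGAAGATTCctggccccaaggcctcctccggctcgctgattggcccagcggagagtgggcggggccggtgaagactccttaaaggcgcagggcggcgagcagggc

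The unit began 104 bases before the start site in both genes, and the promoters (250 bases before to 50 after the start) had 296 of 300 bases in common. Promoters of 7 of the 10 members were found in the table, and 5 of the 7 held the unit, as did 15.1% of all 32851 promoters in it. The other 3 with the unit were *Hsph1*, *Hspe1* and *Dnaja1*, shown as 30 bases each, *Hsph1* on the minus strand and the others on the plus strand.

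*Hsph1*, chr5:149636351-149636380: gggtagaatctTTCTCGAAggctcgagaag

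*Hspe1*, chr1:55088053-55088082: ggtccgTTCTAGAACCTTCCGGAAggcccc

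*Dnaja1*, chr4:40722333-40722362: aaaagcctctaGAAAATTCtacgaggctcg

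In *Hspe1* the units ran on without a break, and 3 alternating units (GAANNTTCNNGAA or TTCNNGAANNTTC) were present in 2 of the 7 member promoters and in 0.603% of all promoters. The other of the 2 was *Hsph1*, in a stretch not printed here that began 36 bases after the start site. A match to these letters is a description of the sequence, not a measured binding site. Because the genes are near copies, 49.3% of the 90-base windows of the *Hspa1a* transcript also occur in *Hspa1b*. None of the 411 windows in the last 500 bases do, which is the end that 3′ libraries read.

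The first question was whether *Hspa1a* and *Hspa1b* followed the thymocyte-like cells or the whole week 3 ta-non-activated library. Over all cells *Hspa1a* was at 3.88 CPM in week 2 and 794 CPM in week 3 ta-non-activated cells, 204-fold higher (95% counting interval 172 to 245; folds are ratios of the printed CPM, while log2 ratios and the 2-fold rule add 1 CPM to both sides), and 120 CPM in the naïve library. *Hspa1b* was 160-fold higher in week 3 than in week 2. Of the 10 members, 3 were at least 2-fold higher in week 3 (*Hspa1a*, *Hspa1b* and *Dnajb1*) and 0 were at least 2-fold lower, where 18.6% of the 5918 genes at 20 CPM or more in either library were higher and 12.1% lower. In this library 68.2% of *Hspa1a* UMIs came from the early-thymocyte-like cells, which made up 41.1% of the cells and 43.3% of all UMIs, and 26.2% came from the cycling cells with T cell markers, which made up 11.6% of the cells and 32.8% of all UMIs. Only 3.73% came from ILC2-like cells. Without the early-thymocyte-like cells the library level of *Hspa1a* was 445 CPM, and without the cycling T-marker cells as well it was 184 CPM. That is still above the week 2 library, and above the naïve library, whose matrix was made with another Cell Ranger version. The corresponding levels of *Hspa1b* were 997, 590 and 306 CPM. The week 3 level was therefore carried mostly by cells with T cell markers, and a lower level was present in the rest of the library. That rest was not free of T cell transcripts, as it held 36 NK- or ILC1-like cells with *Cd3d* at 832 CPM.

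Cell type by cell type, *Hspa1a* passed 100 CPM in each type given here for the week 3 fresh library. The gene stood at 1251 CPM (1217 to 1286) in early-thymocyte-like cells, 635 CPM (607 to 664) in cycling T-marker cells, 489 CPM (370 to 634) in NK- or ILC1-like cells and 146 CPM (129 to 164) in ILC2-like cells. The intervals of the NK- or ILC1-like and cycling T-marker cells overlapped, and no other neighbours in this order did. In the naïve library there were 374 CPM in NK- or ILC1-like and 85.1 CPM in ILC2-like cells, the same order at lower levels. The class may not hold the same cells in both libraries. Its 36 week 3 cells had *Cd3d* at 832 CPM and *Dntt* at 223 CPM, against 150 and 0.681 CPM in its naïve cells. In week 2 ta-non-activated cells neither of these types passed 3 CPM. ILC2-like cells had the lowest *Hspa1a* level of the 5 types measured in week 3 and ranked 6 of 7 in the naïve library. The naïve rank partly sets them against other cells with ILC2 markers. The unnamed naïve clusters 2, 3 and 7 had *Il1rl1* at 671, 576 and 1345 CPM, and *Hspa1a* at 117, 368 and 67.6 CPM.

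**Figure D1:**
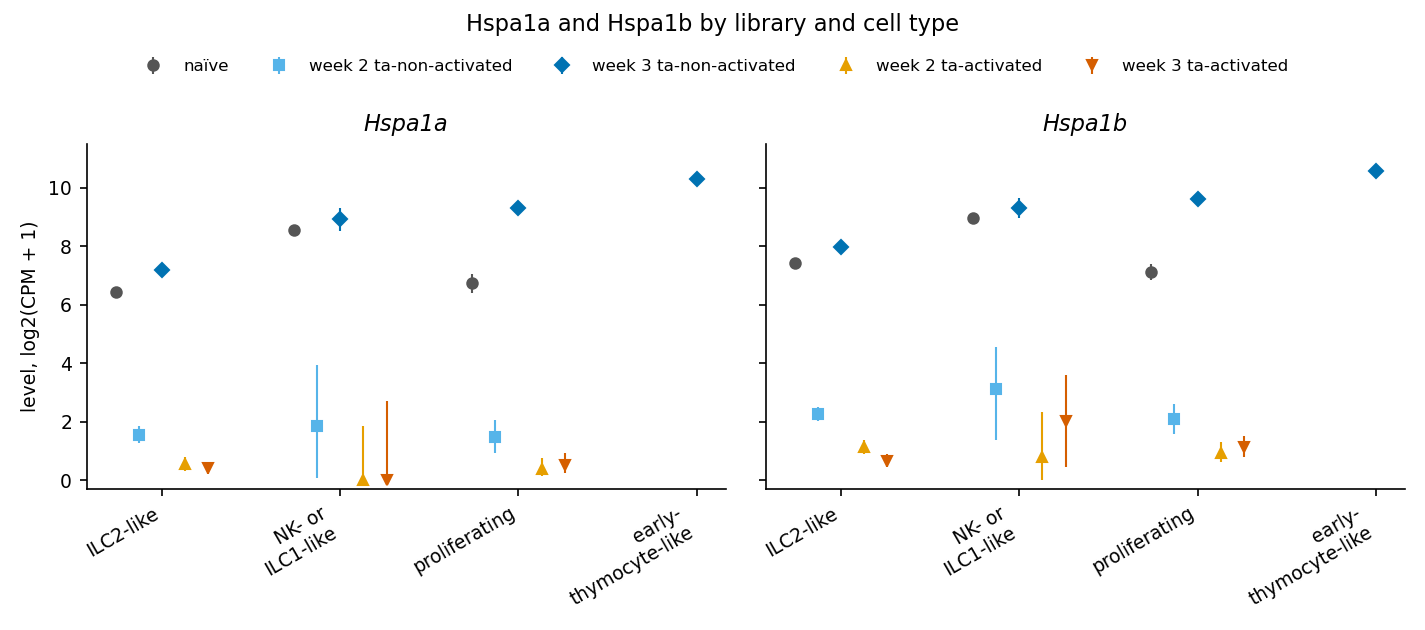
Levels of *Hspa1a* (left) and *Hspa1b* (right) as log2(CPM + 1), on the y axis, in each cell type, on the x axis, with 1 symbol for each library and bars for the 95% Poisson interval (counting error only). In each type with a level in all 5 libraries, the naïve and week 3 ta-non-activated libraries lie above the other 3. Early-thymocyte-like cells have a level in week 3 ta-non-activated only, and with 1251 CPM of *Hspa1a* it is the highest.

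Within ILC2-like cells, which takes the thymocyte-like cells out of the comparison, *Hspa1a* was at 85.1 CPM in the naïve library, 1.95 CPM in week 2 and 146 CPM in week 3 ta-non-activated, and 0.459 and 0.327 CPM in week 2 and week 3 ta-activated. *Hspa1b* was at 173, 3.78, 249, 1.19 and 0.579 CPM in the same order. Naïve and week 3 ta-non-activated cells were high, the other 3 libraries were low, and only the counting intervals of the 2 ta-activated libraries overlapped in both genes. *Hspa1a* was 74.6-fold (54.5 to 104) and *Hspa1b* 65.9-fold (52.4 to 83.6) higher in week 3 than in week 2 ILC2-like cells. Against naïve cells the week 3 difference was small, 1.71-fold (1.51 to 1.95) for *Hspa1a* and 1.44-fold (1.30 to 1.58) for *Hspa1b*. Their log2 ratios were 0.77 and 0.52, against a median of 0.45 for all genes with under 10000 intron bases, the class that holds the pair. With 1 library each, none of these differences has a replicate check.

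The low level of the week 2 ta-non-activated library rested on very few cells. It held 336 UMIs of *Hspa1a* and *Hspa1b* together, of which 54.5% lay in 5 cells, and 8 cells of an unnamed cluster (cluster 7) held 51.2% of its *Hspa1a* UMIs. In the naïve library, the top 5 cells held 4.88% of 10943 UMIs. Taken as a mean over cells, so that each cell weighs the same, the week 3 to week 2 log2 ratio of *Hspa1a* over all cells was 3.54, against 7.35 from summed counts, and in ILC2-like cells the summed counts gave 5.64. Several early-response genes were high and low in the same libraries as the pair, while 12 of 22 were at least 2-fold lower in early-thymocyte-like than in ILC2-like cells of week 3. The phosphatase gene *Dusp1* stood at 481, 7.18, 841, 13 and 15.7 CPM and *Fosb* at 1344, 0, 741, 0.245 and 0.529 CPM in ILC2-like cells of the naïve, week 2 and week 3 ta-non-activated, and week 2 and week 3 ta-activated libraries. The part of sample handling was not tested.

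At equal depth the picture was one of different shares of positive cells. After each cell was thinned to 2000 UMIs, a UMI of *Hspa1a* or *Hspa1b* was found in 14.0% of naïve ILC2-like cells (522 of 3729, exact binomial interval 12.9 to 15.2%) and 13.7% of week 3 ta-non-activated ILC2-like cells (78 of 569, 11.0 to 16.8%), which overlap. The share was 1.26% (17 of 1346) in week 2 ta-non-activated, 0.231% (4 of 1733) in week 2 ta-activated and 0.04% (1 of 2503) in week 3 ta-activated ILC2-like cells. In early-thymocyte-like cells it was 72.1% (472 of 655). The pair was therefore seen in most thymocyte-like cells but in a minority of ILC2-like cells of the same library. Free RNA can give a cell a UMI of a gene it does not express, and no cell type here is known to lack these genes. The 10 leading genes of the early-thymocyte-like cells stood in week 3 ILC2-like cells at 0.205 to 1.36% of their early-thymocyte-like level. *Hspa1a* stood at 11.7%, *Hspa1b* at 16.3%, *Hsph1*, the lowest member, at 9.31% and *Dnaja1*, the highest, at 64.8%. The leading genes were picked from these data for their high fold in that cluster, so a low share is built into the choice. The contrast with the members therefore cannot show how much free RNA was present, and its part was not tested.

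**Figure D2:**
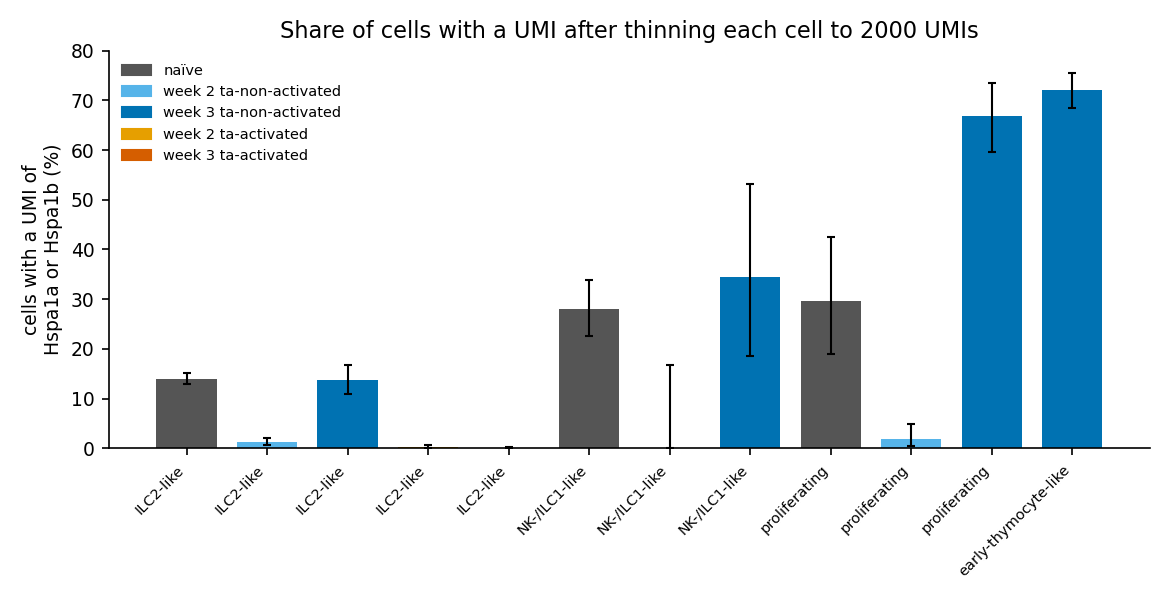
Percent of cells (y axis) with a UMI of *Hspa1a* or *Hspa1b* after thinning each cell to 2000 UMIs, by cell type (x axis) and library (colour), with 95% exact binomial intervals that cover counting error only. Bars reach 72.1% in early-thymocyte-like cells, 14.0% and 13.7% in naïve and week 3 ta-non-activated ILC2-like cells, and at most 1.26% in the other ILC2-like cells.

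Among ILC2-like cells the UMIs of the pair were unevenly spread. The 10% of cells with the most held 94.8% of them in week 3 ta-non-activated and 89.4% in naïve ILC2-like cells, against 31.4% in early-thymocyte-like cells. In thinned week 3 ILC2-like cells, those with a UMI of the pair had *Dnajb1* at 449 CPM against 57 CPM in those without, *Hsph1* at 44.9 against 6.11 CPM and *Hsp90aa1* at 737 against 162 CPM. *Hspd1* (135 against 119 CPM) and *Dnaja1* (609 against 556 CPM) were much nearer to each other. The naïve library gave the same order for *Dnajb1* (311 against 50.7 CPM), *Hsph1* (161 against 23.2 CPM) and *Hsp90aa1* (582 against 275 CPM). There *Dnaja1* (900 against 589 CPM) and *Hspd1* (111 against 81.9 CPM) were further apart than in week 3. In week 3 ILC2-like cells the summed T cell markers were at 1423 CPM with and 1383 CPM without the pair, the summed early thymocyte markers at 1122 and 761 CPM, *Dntt* at 12.8 and 4.07 CPM and *Cd3d* at 25.6 and 9.17 CPM. The summed ILC2 markers were lower in cells with the pair (3923 against 6208 CPM), as they were in naïve ILC2-like cells (8375 against 9971 CPM). Markers of the thymocyte-like cells were thus somewhat higher where the pair was seen in week 3, with *Dntt* and *Cd3d* resting on few UMIs in 78 and 491 thinned cells. Naïve ILC2-like cells did not show this. There the early thymocyte sum was 665 CPM with and 713 CPM without the pair, the T cell sum 1076 and 1128 CPM, *Dntt* 0 and 0.156 CPM and *Cd3d* 1.92 and 2.03 CPM. The part of these markers in the week 3 difference was not tested. Cells of 1 library are not replicates, so these values are descriptions.

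The cytosolic partners were compared next. *Dnajb1*, the J-domain partner of inducible HSP70, was at 89.9, 39.2, 105, 54.3 and 40.8 CPM in ILC2-like cells of the naïve, week 2 and week 3 ta-non-activated, and week 2 and week 3 ta-activated libraries. Like *Hspa1a* and *Hspa1b* it was highest in the naïve and week 3 fresh cells, and it was 2.69-fold higher in week 3 than in week 2. The constitutive HSP70 gene *Hspa8* was at 808, 2875, 1739, 1802 and 1800 CPM, lowest in the naïve and highest in the week 2 fresh cells. *Dnaja1* varied least of the 10, at 637, 605, 583, 323 and 429 CPM.

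The HSP90 and HSP110 genes had their highest ILC2-like level in the week 2 ta-non-activated library. *Hsp90aa1*, the inducible HSP90, was at 316, 1099, 270, 421 and 421 CPM, and *Hsp90ab1*, the constitutive one, at 1037, 4386, 1109, 1524 and 1927 CPM in the same library order. *Hsph1* was at 46.4, 84.8, 17.3, 25.8 and 29.6 CPM. The mitochondrial pair behaved alike, with *Hspe1* at 281, 1272, 327, 356 and 372 CPM and *Hspd1* at 93.7, 1059, 123, 133 and 150 CPM. *Hspe1* and *Hspd1* are neighbours on chromosome 1 that are read in opposite directions.

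**Figure D3:**
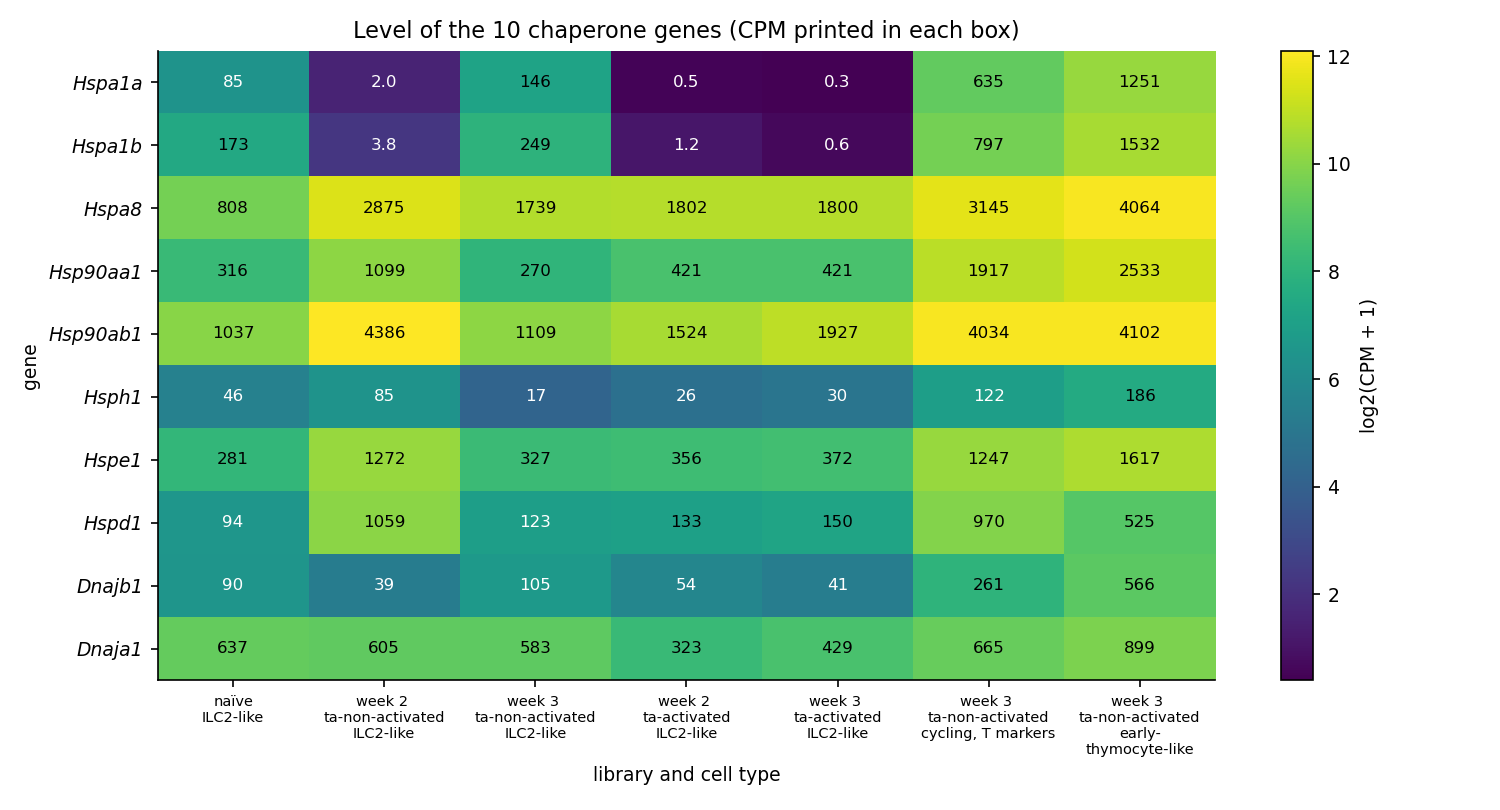
Level of the 10 genes (rows) in ILC2-like cells of each library and in the cells with T cell markers of week 3 (columns), with colour for log2(CPM + 1) and the CPM in each box. *Hspa1a* and *Hspa1b* are high in naïve and week 3 fresh cells, whereas *Hspd1* is at 1059 CPM in week 2 fresh ILC2-like cells and at most 150 CPM in ILC2-like cells of the other libraries.

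Week 3 against week 2 ta-non-activated ILC2-like cells thus split the 10 genes. *Hspa1a*, *Hspa1b* and *Dnajb1* were at least 2-fold higher in week 3, where 18.7% of 5624 genes were, and 5 were at least 2-fold lower, where 25.2% were. The 5 lower genes were *Hspd1* (0.116 of the week 2 level), *Hsph1* (0.204), *Hsp90aa1* (0.245), *Hsp90ab1* (0.253) and *Hspe1* (0.257). *Hspa8* (0.605) and *Dnaja1* (0.963) stayed within 2-fold. Other chaperones were read from lists chosen with earlier results of these data known. All 7 measured subunits of the cytosolic chaperonin TRiC (*Cct6a* was not among the genes common to the matrices) were at least 2-fold lower in week 3 (*Tcp1*, *Cct3*, *Cct5* and *Cct2* by the most), as were 11 of 14 chaperones of the endoplasmic reticulum (*Creld2*, *Manf*, *Sdf2l1* and *Calr* by the most) and 4 of 8 of the mitochondrion (*Hspa9*, *Grpel1*, *Clpb* and *Grpel2*), with 0 higher in any of these lists. Of 21 further HSF1-linked chaperones and co-chaperones, 3 were higher and 9 lower, led by *Cacybp* (log2 ratio −2.83), *Dnajb4* (2.05), *Stip1* (−1.98) and *Hspa4* (−1.66). Of 23 early-response genes, 19 were higher and 2 lower. The median log2 ratio of all genes was −0.19. It was −0.48 for genes with under 10000 intron bases, the class that holds every member but *Hsph1*, and −0.02 for longer ones. These matrices carry the same Cell Ranger version.

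Compared with the naïve library, week 3 ta-non-activated ILC2-like cells differed little in these genes. Only *Hspa8* was at least 2-fold higher (2.15-fold), where 4.05% of 5980 genes were, and only *Hsph1* was at least 2-fold lower (0.373 of the naïve level), where 29% were. Of the other lists, TRiC and mitochondrial chaperones had 0 members past 2-fold in either direction, 1 of 22 HSF1-linked genes was higher and 2 were lower, and 1 of 12 chaperones of the endoplasmic reticulum and 3 of 21 early-response genes were lower. The 2 matrices carry different Cell Ranger versions, 6.0.0 for naïve and 3.0.2 for the rest, and the ratio followed gene structure: genes with under 10000 intron bases had a median log2 ratio of 0.45 and longer ones of −0.69. Of the 10 members *Hsph1* alone, with 14824 intron bases, is in the second class. The part of the software versions in the ratios was not tested. Week 2 ta-non-activated against naïve ILC2-like cells gave 5 members at least 2-fold higher (*Hspa8*, *Hsp90aa1*, *Hsp90ab1*, *Hspe1* and *Hspd1*), against 24.8% of 6501 genes, and 3 at least 2-fold lower (*Hspa1a*, *Hspa1b* and *Dnajb1*), against 35.8%. Gene structure moved with this ratio too. The median log2 ratio was 0.94 for genes with under 10000 intron bases and −0.84 for longer ones. The class under 10000 holds all 5 higher and all 3 lower members.

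Inside the week 3 ta-non-activated library, 9 of the 10 members were at least 2-fold higher in early-thymocyte-like than in ILC2-like cells, where 24.5% of 5996 genes were, and 0 were at least 2-fold lower, where 13.4% were. *Hsph1* stood at 186 against 17.3 CPM, 10.7-fold higher, and *Hsp90aa1* at 2533 against 270 CPM, 9.40-fold. *Hspa1a* was 8.58-fold (7.60 to 9.72) and *Hspa1b* 6.15-fold higher. *Dnajb1* (5.37-fold), *Hspe1* (4.95-fold), *Hspd1* (4.26-fold), *Hsp90ab1* (3.70-fold) and *Hspa8* (2.34-fold) followed, and *Dnaja1* was 1.54-fold higher. So all 10 members had a higher level in the thymocyte-like cells, not the inducible HSP70 pair alone. The other lists did not move as one: 8 of 21 HSF1-linked genes, 3 of 7 TRiC subunits, 2 of 6 mitochondrial chaperones and 1 of 13 chaperones of the endoplasmic reticulum were at least 2-fold higher. Of 22 early-response genes 3 were higher and 12 lower, among the lower *Fos* at 497 against 1275 CPM. The cycling T-marker cells had 1 member, *Dnajb1*, at least 2-fold lower than the early-thymocyte-like cells, where 15.3% of 5755 genes were, and 0 at least 2-fold higher, where 8.88% were. *Hspd1* stood at 970 against 525 CPM. The median log2 ratio of all genes, early-thymocyte-like to ILC2-like, was 0.36.

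Over the 25 pairs of library and cell type with at least 50 cells, the genes whose level followed *Hspa1a* most closely were, after *Hspa1b* (Pearson r = 0.99), the early-response gene *Jun* (0.96), the phosphatase gene *Ptp4a1* (0.95), the stress-response phosphatase subunit gene *Ppp1r15a* (0.95), *Fos* (0.94) and the small GTPase gene *Rab11b* (0.94), of 9243 genes ranked. Among members *Dnajb1* (0.82), *Dnaja1* (0.74) and *Hsph1* (0.58) came next, then *Hsp90aa1* (0.13), *Hspe1* (−0.09), *Hspd1* (−0.15), *Hsp90ab1* (−0.21) and *Hspa8* (−0.32). The points share libraries and fall into 2 separate sets, naïve and week 3 ta-non-activated against the other 3 libraries, so r here mainly describes that split. Within the 10 naïve and week 3 ta-non-activated points, *Hspa1b* (0.99), *Dnajb1* (0.89), *Hsp90aa1* (0.86), *Hspe1* (0.81), *Hsp90ab1* (0.78), *Hspd1* (0.77), *Dnaja1* (0.76), *Hspa8* (0.71) and *Hsph1* (0.62) all had a positive r with *Hspa1a*, and so did the thymocyte-like cells' markers *Cd3d* (0.89) and *Dntt* (0.77). *Jun* was at 0.55 and *Fos* at −0.49. Within the 15 points of the other 3 libraries, where *Hspa1a* was near 0, r was 0.46 for *Hspa1b* and −0.28 for *Dnajb1*.

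**Figure D4:**
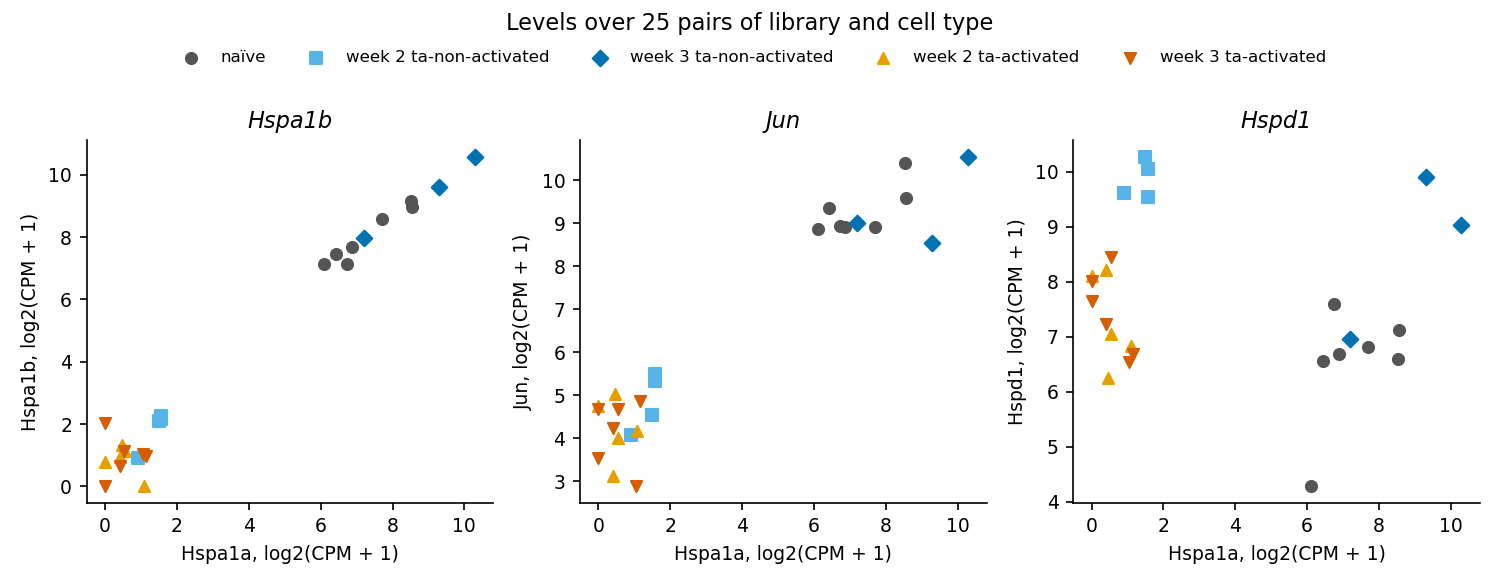
Level of *Hspa1b*, *Jun* and *Hspd1* (y axes) against the level of *Hspa1a* (x axes), all as log2(CPM + 1), with 1 symbol for each of 25 pairs of library and cell type, coloured by library. *Hspa1b* (r = 0.99) and *Jun* (r = 0.96) separate naïve and week 3 ta-non-activated from the other libraries as *Hspa1a* does, and *Hspd1* (r = −0.15) does not.

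The last comparison asked how culture with cytokines changed the genes, with 2 ta-activated against 2 ta-non-activated libraries. No gene was called by edgeR's quasi-likelihood test at an adjusted p under 0.05, either over all cells (12643 genes) or in ILC2-like cells (11969 genes), so 0% of genes were called higher or lower in either fit and 0 of the 10 members. At an unadjusted p under 0.05 there were 2120 and 1635 genes, and DESeq2 called 1037 and 578 genes. Over all cells the members' log2 fold changes were all negative, from −0.76 for *Hspa8* (edgeR adjusted p = 0.306) to −9.84 (SE 2.72) for *Hspa1a* (edgeR adjusted p = 0.252). Fits over all cells set different mixes of cells against each other. Early-thymocyte-like cells numbered 2 and 658 in week 2 and week 3 ta-non-activated, and 0 and 1 in the ta-activated libraries. The part of this mix was not tested. In ILC2-like cells *Hspa1a* had −7.63 (SE 2.14, edgeR adjusted p = 0.287) and *Hspa1b* −7.24 (edgeR adjusted p = 0.287). Without a filter on low counts, edgeR called 278 genes in ILC2-like cells, among them *Hspa1a* (edgeR adjusted p = 0.0235) and *Hspa1b* (edgeR adjusted p = 0.0274). DESeq2 called 6 members over all cells (*Hspa1a*, *Hspa1b*, *Hsp90aa1*, *Hsph1*, *Hspe1* and *Hspd1*) and 2 in ILC2-like cells (*Hspa1a* and *Hspa1b*). The edgeR calls depended on single libraries. Without the week 2 ta-non-activated library it called 1646 genes with 7 members over all cells and 72 genes with 2 members in ILC2-like cells, and without the week 3 ta-non-activated library 513 genes with 5 members and 1279 genes with 5 members. Without the week 2 or the week 3 ta-activated library it called 82 and 110 genes in ILC2-like cells and 0 over all cells. Where 1 library was left in a group, it is assumed to vary like the other group. In ILC2-like cells, *Hsp90aa1*, *Hsp90ab1*, *Hsph1*, *Hspe1* and *Hspd1* had negative log2 fold changes, which turned positive without the week 2 ta-non-activated library, and that of *Dnajb1* turned positive without the week 3 ta-non-activated library.

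Week by week, culture went with different members, and each week's ratio also depends on its fresh library. *Hspd1* was at 1059 and 123 CPM in week 2 and week 3 fresh ILC2-like cells, and at 133 and 150 CPM in cultured ones. In week 2, the ILC2-like cells had 5 of the 8 members at 20 CPM or more at least 2-fold lower after culture (*Hsp90aa1*, *Hsp90ab1*, *Hsph1*, *Hspe1* and *Hspd1*) against 16.3% of 5647 genes, and 0 higher against 16.9%. *Hspa1a* and *Hspa1b* did not reach 20 CPM in either library, and were also at least 2-fold lower. In week 3, *Hspa1a*, *Hspa1b* and *Dnajb1* were at least 2-fold lower after culture, against 10.8% of 5817 genes, and 0 were higher, against 21.9%. *Hspa1a* and *Hspa1b* reached 20 CPM in the fresh cells only. Of the TRiC subunits 7 of 7 were lower in week 2, and in week 3 0 were lower and 1 of 7 (*Tcp1*) was higher. Of the early-response genes 5 of 16 were higher and 2 lower in week 2, and 2 of 23 were higher and 18 lower in week 3. Week and library cannot be told apart.

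**Figure D5:**
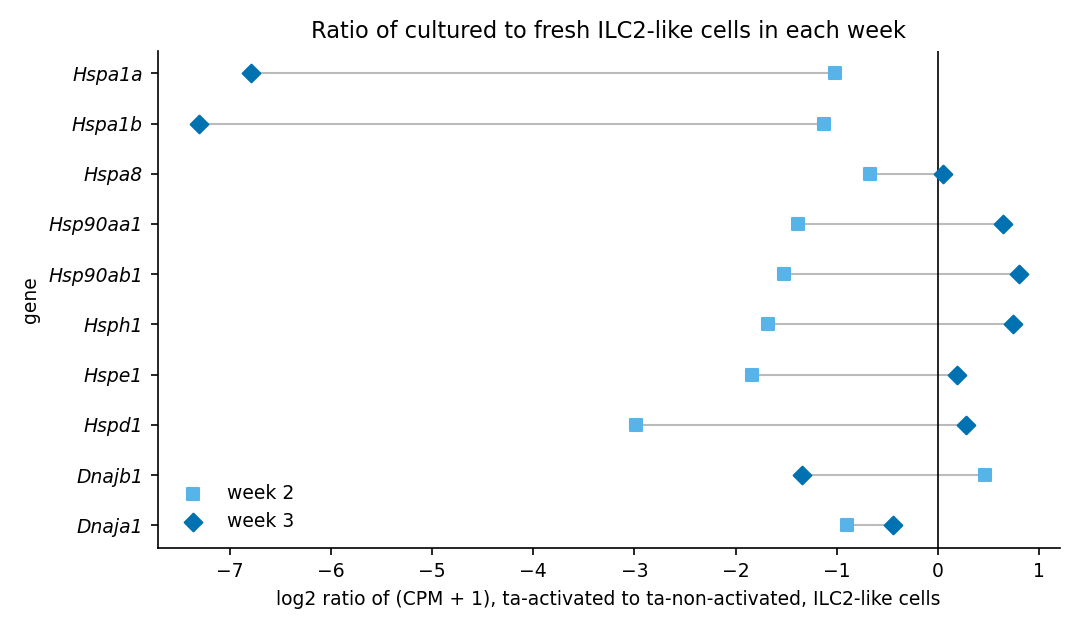
Log2 ratio of (CPM + 1) of ta-activated to ta-non-activated ILC2-like cells (x axis) for the 10 genes (y axis), with 1 symbol for each week and no replicate within a week. *Hspa1a* and *Hspa1b* lie below 0 in both weeks, and *Hspd1* is at −2.99 in week 2 and 0.28 in week 3.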

How the data were processed

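The deposited matrices hold raw UMI counts per gene and cell from 10x 3′ v3.1 libraries, made by the authors with Cell Ranger (header 6.0.0 for naïve, 3.0.2 for the other 4 libraries). The submitters' processing notes name Cell Ranger 3.0.2, Seurat 3 and GRCm38. A barcode stayed in if it had 200 genes or more and mitochondrial counts below 5%. Doublets were not called. Cells were integrated and clustered with Seurat 5.3.0 in R 4.3.3 (2000 variable genes, 30 dimensions, resolution 0.2), leaving out the 88 member and list genes. Counts were summed per library and cell type in Python 3.11.15. Types with under 20 cells in a library got no level. Log2 ratios, and the 2-fold rule applied to genes at 20 CPM or more in either group, add 1 CPM to both sides. Folds add nothing and carry 95% counting intervals. The libraries hold 9394957 to 61830293 kept UMIs, and shallower ones have wider intervals. The 2 ta-activated and 2 ta-non-activated libraries were compared by edgeR 4.0.16 (quasi-likelihood, TMM, Benjamini-Hochberg, two-sided), with DESeq2 1.42.0 as an alternative. The script was checked on simulated counts. The labels do not say whether libraries of different weeks are independent repeats, so p-values measure the spread between these libraries.

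All 10 members are named. In each list at most the 4 genes with the largest log2 ratio of week 3 to week 2 ta-non-activated ILC2-like cells are named, and the 5 genes most like *Hspa1a* by Pearson's r. The members and lists were chosen with earlier results of these data known. Alternatives were another scaling, pseudocounts of 0.1 and 5, thinning, means over cells, unintegrated clustering, a 10% mitochondrial limit, a marker gate, other filters, a week block and leaving out each library. Levels of 1 cell type are not reported here.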

Additional observations from a re-analysis of the deposited data

Results flagged for a closer look

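In ILC2-like cells, 7 of the 10 genes had ratios of ta-activated to ta-non-activated cells that pointed one way in week 2 and the opposite way in week 3, so that the single library pair of each week moved in opposite directions. With 1 library pair a week the difference was not tested. In each of these 7 genes the fresh levels of week 2 and week 3 lay further apart than the cultured ones. Of the genes at 20 CPM or more in both weeks, 7 of 8 members and 43% of all 5127 genes had ratios of opposite sign. The mitochondrial chaperonin genes had log2 ratios of −2.99 in week 2 and 0.28 in week 3 (*Hspd1*) and of −1.83 and 0.19 (*Hspe1*). The HSP90 genes gave −1.38 and 0.64 (*Hsp90aa1*) and −1.52 and 0.80 (*Hsp90ab1*), and the HSP110 gene *Hsph1* gave −1.68 and 0.74. *Hspa8* gave −0.67 and 0.0495, and the counting interval of its week 3 fold included 1. *Dnajb1* went the other way from the rest, with 0.46 in week 2 and −1.35 in week 3. *Hspa1a*, *Hspa1b* and *Dnaja1* were lower after culture in both weeks.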

How the results depend on the processing

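Counts of edgeR calls with activation over all cells (0 as reported) stayed at 0 with RLE factors, no low-count filter, 5 libraries in 1 fit, a 10% mitochondrial limit and all barcodes, and were 1037 with DESeq2 and 0 to 1646 when a library was left out. In ILC2-like cells (0 as reported) they were 578 with DESeq2, 278 without the low-count filter (2 members, *Hspa1a* and *Hspa1b*) and 72 to 1279 when a library was left out. With week as a replicate block they were 0 over all cells and 145 in ILC2-like cells. The week differences of fresh and cultured libraries correlated across genes at −0.05 over all cells and 0.04 in ILC2-like cells. With a single week difference on each side, these values cannot show whether fresh and cultured libraries of the same week were paired. Directions reversed where a fresh library was left out. Leaving out week 2 and then week 3 ta-non-activated cells, the ILC2-like log2 fold changes were 0.545 and −1.61 for *Hsp90aa1*, 0.53 and −1.58 for *Hsp90ab1*, 0.58 and −1.84 for *Hsph1*, 0.056 and −2.03 for *Hspe1*, 0.093 and −3.14 for *Hspd1*, and −1.24 and 0.062 for *Dnajb1*, which over all cells was at −2.76 and 0.079. The week 3 to week 2 log2 ratio over all cells was, for *Hspa1a* (7.35) and *Hspa1b* (7.11), 3.54 and 3.47 as a mean over cells, 6.49 and 6.48 with 5 CPM added, and 7.64 and 7.61 in thinned cells, and was 7.64 for *Hspa1a* with 0.1 CPM added and 6.86 for *Hspa1b* with TMM scaling. Members at least 2-fold lower rose there from 0 to 1 as a mean over cells, with TMM scaling and in thinned cells. In ILC2-like cells *Hspa1a* (5.64) was at 6.15 and 4.44 with 0.1 and 5 CPM added and at 5.13 in thinned cells, and *Hspa1b* (5.71) was at 4.86 with 5 CPM added. Against naïve, *Hspa1a* (0.77) was at 0.42 in marker-gated cells and *Hspa1b* (0.52) at 0.73 with the 10% mitochondrial limit, and members at least 2-fold higher fell from 1 to 0 with unintegrated clusters. Members at least 2-fold higher with culture in week 3 rose from 0 to 1 in thinned cells. Early-thymocyte-like to ILC2-like, *Hspa1a* (3.09) was at 3.30 as a mean over cells, 2.83 with TMM scaling, 2.76 with unintegrated clusters, 2.69 in marker-gated cells and 3.29 in thinned cells, and *Hspa1b* (2.62) at 2.48 with the 10% limit, 2.35 with TMM scaling, 2.19 with unintegrated clusters and 2.13 in marker-gated cells. The cause of these shifts was not tested. No ratio of *Hspa1a* or *Hspa1b* named here changed sign.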
